A study of Mus musculus with 21 samples.

Results

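The genes studied here tie the actin cytoskeleton to itself and to the cell membrane, and were followed across mouse testicular and smooth muscle cells in culture. They are the filamins Flna and Flnc, the alpha-actinins Actn1 and Actn4, vinculin (Vcl), talin 1 (Tln1), zyxin (Zyx), leiomodin 1 (Lmod1) and smoothelin (Smtn). The set was chosen by symbol, and all 9 were found among the 19285 genes with a value. RNA abundance was measured by RNA sequencing in 21 libraries, 3 in each of 7 groups: peritubular myoid cells (PTM), the contractile cells around the seminiferous tubule, then Sertoli, Leydig and germ cells of the testis, and vascular (VSMC), intestinal (ISMC) and tracheal (TSMC) smooth muscle cells. Every group came from C57BL/6J mice, was labelled as primary cells, received no treatment and grew in DMEM/F12 medium with 10% serum. Per the series text, testicular cells were prepared by published protocols and smooth muscle cells were purchased. Tissue and source therefore cannot be told apart in comparisons with smooth muscle. The age of the mice is not given in the sources used here. Values are FPKM, a fragment number corrected for transcript length and library size, and levels of different genes are compared on this per-length scale.

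Cells pull on their surroundings through focal adhesions, where integrins that hold the matrix outside are coupled to actin inside. Talin binds the integrin tail and actin, and vinculin joins talin under load and strengthens that link. Alpha-actinins and filamins crosslink actin filaments, zyxin gathers at strained adhesions and stress fibres, and leiomodin 1 and smoothelin are actin-binding proteins of smooth muscle. Several of these genes are known targets of serum response factor, which binds the CArG box, and of YAP with TEAD factors, which bind the MCAT sequence.

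Each group was compared by a limma model of log2(FPKM + 1) over the 14444 genes that reached 1 FPKM in 3 or more libraries. A gene was called when it had an adjusted p under 0.05 together with a log2 fold change of 1 or more in size, and each fold change is the PTM mean minus that of the compared group. Depth inferred from the step of the low FPKM values was 20000000 to 22500000 fragments per library. The variance between a pair of libraries was 16.67 and 26.58 times sampling noise between PTM replicate 2 and the other PTM libraries, against 3.23 times between those. Replicate 2 stood apart likewise in Sertoli (28.98 and 38.03, against 3.71) and in germ cells (up to 12.29, against 1.77). Where leaving these libraries out ended a call or moved a value by over 1.5 times, the value without them is given. The smooth muscle list (Acta2, Myh11, Cnn1, Tagln, Des) summed to 2986 to 3446 FPKM in PTM libraries and to 8094 to 11271 FPKM in Sertoli libraries, so the libraries labelled Sertoli held more of these myoid transcripts than those labelled PTM. The same list summed to 4268 to 4564 FPKM in VSMC, while ISMC held 4453 to 4749 and TSMC 4229 to 4358, all above PTM. Desmin, an intermediate filament of muscle, averaged 79.2 FPKM in PTM and 1.01, 4.83 and 5.25 FPKM in VSMC, ISMC and TSMC. The Leydig markers Insl3 and Cyp17a1 averaged 3249 and 0.05 FPKM in Leydig libraries, and Insl3 averaged 3647 FPKM in PTM libraries. Of the Leydig list, 5 of 6 genes averaged at least 1 FPKM in PTM, and its summed level was 2393 to 5016 FPKM in PTM and 1165 to 7270 FPKM in Leydig libraries. The Sertoli list (Sox9, Wt1, Amh, Dmrt1, Cldn11) summed to 158 to 645 FPKM in PTM and 196 to 353 FPKM in Sertoli libraries, with 4 of 5 genes at 1 FPKM or more in both groups and Amh under it in both (0.327 and 0.58). Germ libraries carried Ddx4 at 225 FPKM.

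The 9 genes together were abundant in somatic cells and nearly silent in germ cells. Their summed level was 1475.7 to 1627 FPKM in PTM libraries, 1862.1 to 2093.3 in Sertoli, 656.8 to 711.7 in Leydig, 16.4 to 21 in germ, while VSMC held 2261.5 to 2315.9, ISMC 2134.3 to 2284.3 and TSMC 2084.8 to 2149.2. In PTM cells Actn4 ranked 196 and Actn1 212 among 19285 genes, and Flnc was the least abundant of the 9 at rank 4014. Leydig cells had the lowest somatic mean of every one of the 9 genes. The range of somatic group means was narrowest for Tln1 (1.86-fold) and widest for Flnc (6.81-fold). Because these are bulk preparations, fewer cells of a type and less RNA per cell cannot be told apart.

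**Figure D1:**
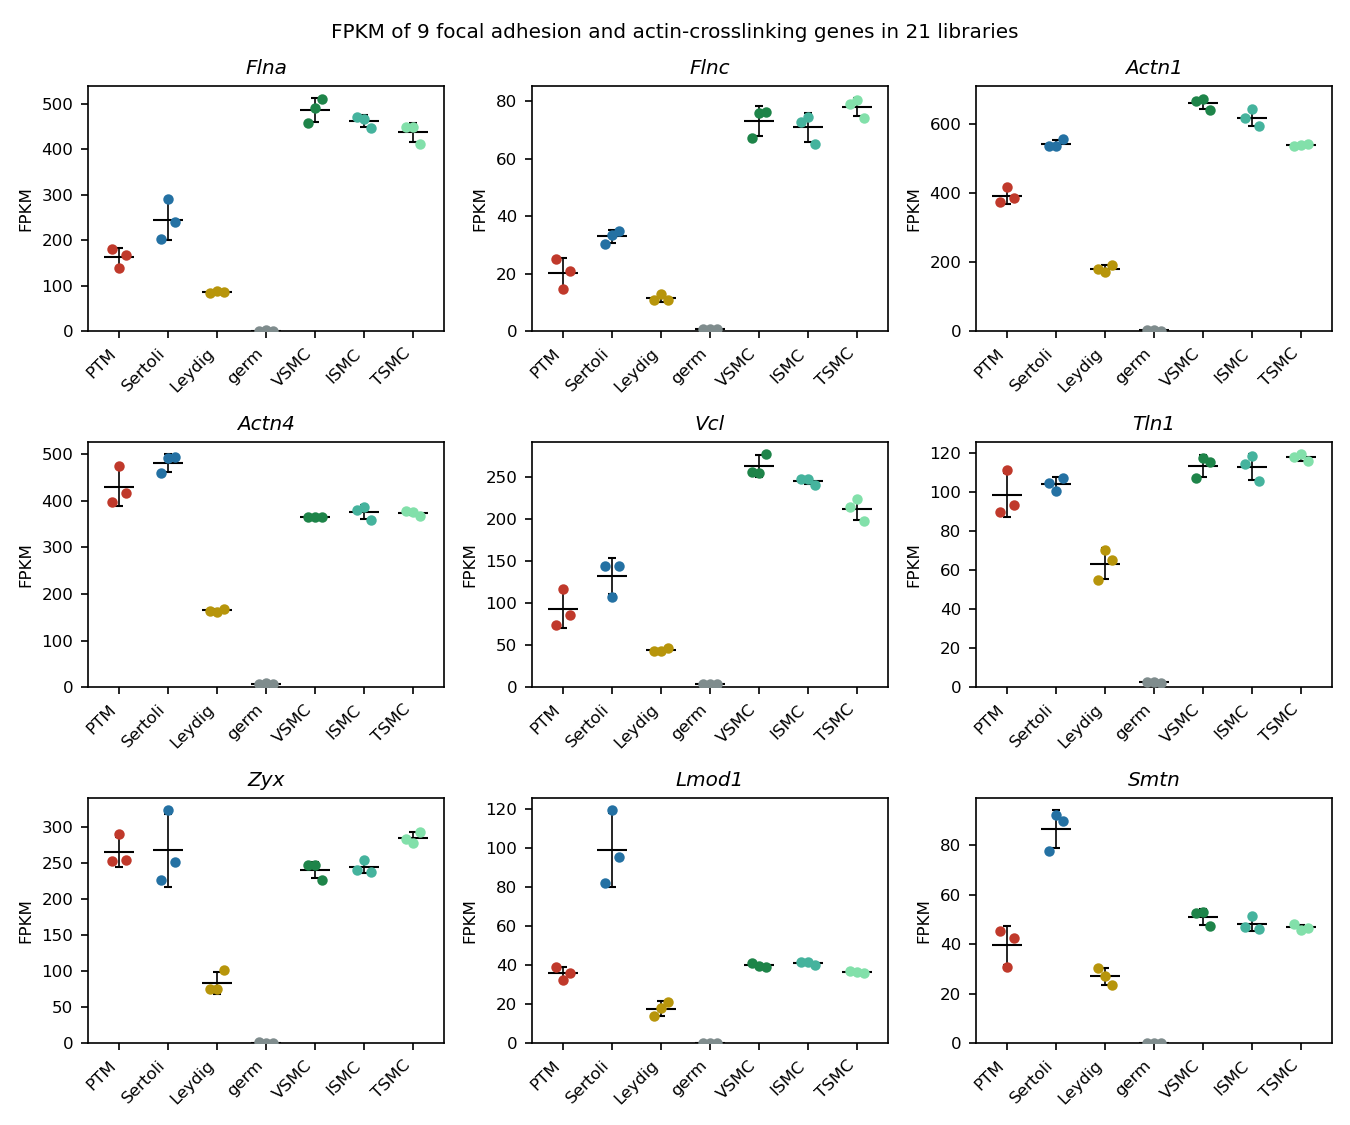
FPKM of each gene in every library (points), with the group mean and SD (lines, n = 3), on linear axes from 0 that differ between panels. Flna, Flnc and Vcl are highest in VSMC, ISMC and TSMC, Lmod1 and Smtn are highest in Sertoli cells, and all 9 genes are near 0 in germ cells.

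Against smooth muscle, 3 of the 9 genes were called lower in PTM cells in each of the 3 comparisons, and in each they were Flna, Flnc and Vcl; after quantile normalization or median log-ratio scaling Actn1 was also called against VSMC (-1.03 and -1.05). Of all genes tested, 6.37% were called lower and 12.6% higher in PTM against VSMC, 7.0% and 10.7% against ISMC, and 7.20% and 11.3% against TSMC. By limma, 0 of the 9 were called higher in PTM; at an unadjusted p under 0.05, 1 gene (Actn4) was higher in each comparison. Because the 3 comparisons share the PTM libraries, they are not independent of each other. The median fold change of the 9 genes was -0.37 against VSMC, -0.29 against ISMC and -0.27 against TSMC, beside 0.19, 0.14 and 0.13 over all genes tested.

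The filamins are long hinged dimers that hold actin filaments in a loose orthogonal mesh, and filamin A also binds integrin tails. Flna (Entrez 192176, chromosome X, 74223461 to 74246534, minus strand, mm10) stood at 180.0, 139.6 and 166 FPKM in PTM libraries. Smooth muscle libraries held 458, 490.4 and 511 FPKM in VSMC, 470.2, 467 and 446 in ISMC, and 449, 449 and 412 in TSMC. All 9 smooth muscle libraries lay above all 3 PTM libraries, and they spanned only 1.24-fold among themselves. The log2 fold change of Flna was -1.59 against VSMC (SE 0.11, adjusted p = 2.9e-09), -1.51 against ISMC (SE 0.11, adjusted p = 5.65e-09) and -1.43 against TSMC (SE 0.11, adjusted p = 1.1e-08).

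Filamin C, the muscle-enriched filamin, followed the same direction from a lower level. Flnc (Entrez 68794, chromosome 6, 29433153 to 29461888, plus strand) was at 25.0, 14.6 and 21.1 FPKM in PTM libraries. In smooth muscle it was at 67.2, 75.8 and 76.4 FPKM in VSMC, 72.7, 74.7 and 65.3 in ISMC, and 79.2, 80.6 and 74.3 in TSMC. The groups did not overlap, and the lowest PTM value came from replicate 2. Flnc differed by -1.83 against VSMC (SE 0.13, adjusted p = 2.61e-09), -1.79 against ISMC (adjusted p = 3.77e-09) and -1.93 against TSMC (adjusted p = 1.38e-09), the largest steps of the 9 genes against smooth muscle. Markers of skeletal and cardiac muscle, the tissues in which filamin C is best known, summed to 1.97 to 2.16 FPKM in PTM libraries and to 0.51 to 1.21 FPKM over the smooth muscle libraries.

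Vinculin (Entrez 22330, chromosome 14, 20929433 to 21033673, plus strand) was at 74.3, 117.3 and 86.1 FPKM in PTM libraries. Its smooth muscle libraries held 256, 255 and 278 FPKM (VSMC), 247, 247 and 241 FPKM (ISMC), and 214, 223 and 198 FPKM (TSMC). Every smooth muscle library again exceeded every PTM library, although PTM replicate 2 was here the highest of its group. Vcl differed by -1.52 against VSMC (SE 0.13, adjusted p = 2.04e-08), -1.42 against ISMC (adjusted p = 5.12e-08) and -1.21 against TSMC (adjusted p = 3.48e-07). The gene shares 2090 exonic bases with Ap3m1 on the opposite strand in GENCODE M21, and the sources used here do not say whether reads were counted by strand. Ap3m1, a subunit of a vesicle adaptor, ranged from 15.1 to 21.8 FPKM over the 18 somatic libraries. Exons are also shared with opposite-strand genes by Smtn (714 bases, Gm11946), Actn1 (363 bases, Gm47766), Actn4 (316 bases, Capn12) and Zyx (236 bases, Epha1).

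Since Flna, Flnc and Vcl moved together, the bases before their transcription starts are shown, from RefSeq on GRCm38.p6, the assembly of mm10. Each run holds 250 bases before the start and 10 from it, in lower case, with matches to the CArG box or to MCAT (CATTCC, on either strand) in capitals.
Vcl (chr14:20929148-20929407, plus strand): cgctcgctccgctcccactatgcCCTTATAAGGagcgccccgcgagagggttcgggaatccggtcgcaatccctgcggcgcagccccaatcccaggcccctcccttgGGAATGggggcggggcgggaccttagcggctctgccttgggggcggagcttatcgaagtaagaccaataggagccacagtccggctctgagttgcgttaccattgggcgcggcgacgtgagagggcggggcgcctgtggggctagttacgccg
Flna (chrX:74246525-74246784, minus strand): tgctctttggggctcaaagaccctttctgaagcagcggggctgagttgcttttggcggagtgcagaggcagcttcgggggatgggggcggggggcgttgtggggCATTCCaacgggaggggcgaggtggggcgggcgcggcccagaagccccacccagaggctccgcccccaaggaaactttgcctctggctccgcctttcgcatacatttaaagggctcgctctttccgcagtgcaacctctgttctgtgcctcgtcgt
Flnc (chr6:29432903-29433162, plus strand): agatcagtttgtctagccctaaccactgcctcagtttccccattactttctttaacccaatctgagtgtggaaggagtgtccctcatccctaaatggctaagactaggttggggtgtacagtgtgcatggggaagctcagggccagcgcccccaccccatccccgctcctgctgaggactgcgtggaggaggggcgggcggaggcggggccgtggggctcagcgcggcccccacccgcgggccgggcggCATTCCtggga

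The CArG box matched in the Vcl window, 227 bases before the start, where it reads the same on both strands. It matched in 1 of the 9 genes, against 1.81% of the 27025 genes in the RefSeq table, counted over windows of 300 bases (250 before to 50 after each start) on both strands. MCAT matched in 6 of the 9 genes (Flna, Flnc, Vcl, Actn4, Lmod1, Smtn), against 16.58% of genes. The GC box (GGGCGG) matched in 8 of the 9 genes, against 38.2% of genes, and TATAAA in 0 of 9, against 15.67%. All 9 genes had an entry, with 10 windows because Flnc has a pair of annotated starts. The CArG and MCAT matches in these windows overlapped no match of another motif. A match describes letters in a window, and no binding was measured.

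The alpha-actinins, antiparallel dimers that bundle actin filaments, parted from each other. Actn1 (Entrez 109711, chromosome 12, 80167542 to 80260371, minus strand) was at 373, 417 and 386 FPKM in PTM libraries, against 667, 671 and 642 FPKM in VSMC, 616, 643 and 593 in ISMC, and 535, 539 and 541 in TSMC. Its difference stayed under the fold threshold at -0.75 against VSMC (95% interval -1 to -0.51, adjusted p = 2.44e-05), -0.66 against ISMC (adjusted p = 0.000108) and -0.46 against TSMC (adjusted p = 0.00247). Actn4 (Entrez 60595, chromosome 7, 28893254 to 28962280, minus strand) was at 396, 474 and 417 FPKM in PTM libraries. It was at 366 FPKM in each VSMC library, 381, 387 and 359 in ISMC, and 377, 376 and 368 in TSMC. All 3 PTM values lay above the smooth muscle values, by 0.22 against VSMC (95% interval 0.06 to 0.39, adjusted p = 0.0189), 0.19 against ISMC (adjusted p = 0.0471) and 0.19 against TSMC (adjusted p = 0.04). This small step turned to -0.11, -0.11 and -0.17 with quantile-normalized values, and to -0.07, -0.07 and -0.03 with median-scaled values, so its direction depends on the scaling. Without the second PTM, Sertoli and germ libraries the Actn4 difference was 0.15, 0.11 and 0.12. By limma it then passed the adjusted p against VSMC (0.0198) but not against ISMC (0.0697) or TSMC (0.0558). A ratio within a library avoids library scaling. Actn1 over Actn4 was 0.879 to 0.94 in PTM libraries, against 1.752 to 1.834 (VSMC), 1.618 to 1.659 (ISMC) and 1.417 to 1.47 (TSMC), with no overlap.

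**Figure D2:**
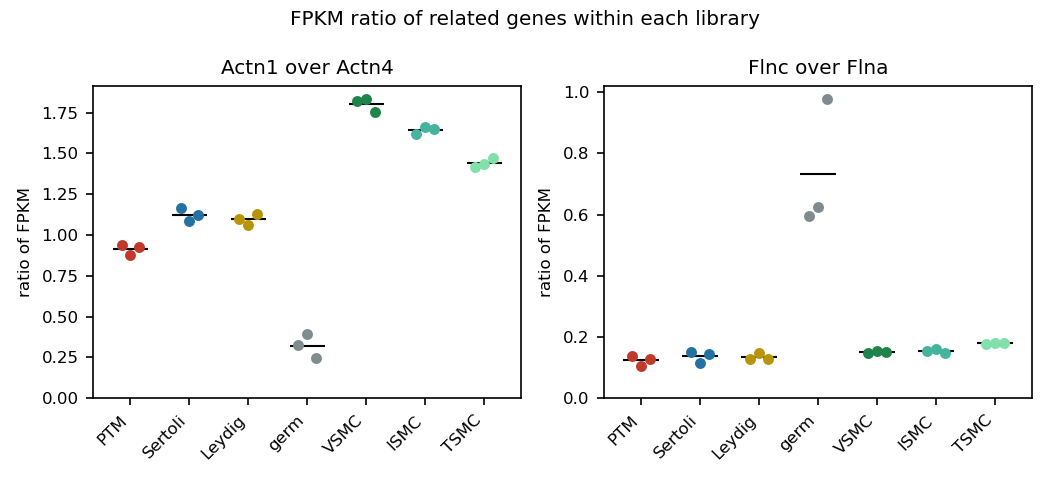
Ratio of FPKM between related genes within each library (points, 3 per group, with the mean as a line), on linear axes from 0. Actn1 over Actn4 lies between 0.879 and 0.94 in PTM libraries and at 1.417 or more in all 9 smooth muscle libraries, while germ libraries stand apart in both ratios.

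Flnc over Flna was 0.105 to 0.139 in PTM libraries, below VSMC (0.147 to 0.155), ISMC (0.146 to 0.16) and TSMC (0.176 to 0.181). Sertoli (0.116 to 0.151) and Leydig libraries (0.127 to 0.146) overlapped PTM in this ratio. Both ratios are given as descriptions, since an exact permutation test of 3 against 3 libraries cannot give a p below 0.1.

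Tln1, Zyx, Lmod1 and Smtn stayed under the fold threshold against every smooth muscle group, also under both rescalings. Tln1 (Entrez 21894, chromosome 4) spanned 90.2 to 111 FPKM in PTM and 106 to 119.9 FPKM in the 9 smooth muscle libraries. Its differences were -0.21 (95% interval -0.4 to -0.02), -0.20 (-0.39 to -0.02) and -0.27 (-0.45 to -0.08) against VSMC, ISMC and TSMC. Tln1 shares 360 exonic bases with Creb3 on the opposite strand, which ranged from 134 to 211 FPKM in PTM and from 73.7 to 91.1 FPKM in smooth muscle libraries. Zyx (Entrez 22793, chromosome 6) spanned 253 to 290.01 FPKM in PTM and 227 to 293 in smooth muscle, with adjusted p of 0.37, 0.463 and 0.526. The interval of the Zyx difference was -0.14 to 0.42 against VSMC, -0.16 to 0.4 against ISMC and -0.38 to 0.17 against TSMC, and its sign against VSMC and ISMC turned under both rescalings. Lmod1 differed by -0.16, -0.20 and -0.03 (adjusted p = 0.294, 0.177 and 0.863), with the interval against TSMC at -0.3 to 0.24. Smtn differed by -0.37 (adjusted p = 0.0105), -0.29 (adjusted p = 0.0405) and -0.26 (adjusted p = 0.0694), and its highest PTM library (45.4 FPKM) lay just under the lowest smooth muscle library (45.7 FPKM). With quantile-normalized values these steps were larger, at -0.55, -0.51 and -0.54 for Tln1, -0.46, -0.48 and -0.28 for Lmod1, and -0.69, -0.57 and -0.51 for Smtn. Lmod1 then passed the adjusted p alone against VSMC (limma, 0.00923) and ISMC (0.00696), as it did with median-scaled values (0.00776 and 0.00703). Without the second PTM, Sertoli and germ libraries Smtn differed by -0.21, -0.13 and -0.09 against VSMC, ISMC and TSMC. By limma Smtn then no longer passed the adjusted p against VSMC (0.0729) or ISMC (0.273). In that setting Lmod1 stood at -0.09 against VSMC, and Zyx at 0.08, 0.05 and -0.17 against VSMC, ISMC and TSMC.

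Counting separation alone, 8 of the 9 genes had no overlap between PTM and VSMC libraries, 7 between PTM and ISMC, and 7 between PTM and TSMC, against 74.3%, 72.8% and 72.2% of all genes tested. By adjusted p alone 7, 6 and 6 genes passed, against 63.7%, 61.3% and 61.6% of all genes. These shares lie near those of all genes, so they say nothing particular about the 9.

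Libraries labelled VSMC and ISMC also carried macrophage and endothelial markers. Of 7 macrophage markers (Adgre1, Csf1r, Cd68, Lyz2, C1qa, C1qb, Ptprc), 5 averaged at least 1 FPKM in PTM, 6 in VSMC, 7 in ISMC and 2 in TSMC. Their summed level was 73.4 to 130 FPKM in PTM libraries, against 222 to 249 (VSMC), 461 to 638 (ISMC) and 9.43 to 11.1 (TSMC). The 6 endothelial markers (Pecam1, Cdh5, Kdr, Tek, Emcn, Tie1) summed to 31.4 to 52.2 FPKM in PTM libraries, against 209 to 226 (VSMC), 199 to 210 (ISMC) and 22.6 to 25.8 (TSMC). Platelet and megakaryocyte markers come from cells rich in filamin and talin. They summed to 15.1 to 16.9 FPKM in PTM and 4.17 to 14.2 FPKM over the smooth muscle libraries. Most of the PTM sum was Pf4, at 13.2 to 14.9 FPKM in PTM and 7.36 FPKM or less in smooth muscle libraries. Gp1bb ran the other way, averaging 0.9 FPKM in PTM and 5.58, 6.17 and 4.08 in VSMC, ISMC and TSMC. Ppbp and Itga2b, higher in PTM, and Gp9, lower in PTM, averaged under 1 FPKM in these groups. Fibroblast markers (Pdgfra, Dcn, Lum, Col1a1, Col3a1) summed to 356 to 478 FPKM in PTM libraries and to 1462 to 1939 FPKM over smooth muscle libraries. That gap lay in Col1a1, which averaged 204 FPKM in PTM and 1725, 1534 and 1366 in VSMC, ISMC and TSMC. Pdgfra (15.5 against 1.09, 1.27 and 3.97), Dcn (51.3 against 3.21, 10.5 and 10.2) and Col3a1 (164 against 75.4, 64.5 and 117) were higher in PTM. Lum averaged 1.85 FPKM or less in these groups. The widest gaps were in the testicular lists. Leydig markers summed to 2393 to 5016 FPKM in PTM and 0.45 to 1.6 FPKM over smooth muscle libraries. Most of this PTM sum was Insl3, which averaged 3647 FPKM. Sertoli markers summed to 158 to 645 FPKM in PTM and 1.08 to 3.04 FPKM over smooth muscle libraries. The smooth muscle and fibroblast sums were lower in PTM than in each smooth muscle group, as were Flna, Flnc and Vcl. Within the smooth muscle list this held for Acta2, Tagln and Cnn1. Myh11 averaged slightly more in PTM (48.5 FPKM) than in VSMC, ISMC and TSMC (43.7, 45.7 and 39.6), and Des far more (79.2 against 1.01, 4.83 and 5.25). Macrophage and endothelial sums were lower in PTM than in VSMC and ISMC but higher than in TSMC. Not all genes followed these sums. Cd68 averaged more in PTM (35.4 FPKM) than in VSMC (11.1) and ISMC (20.3), as did Kdr (2.38 against 1.26 and 2.14). Tie1 averaged slightly less in PTM (0.977 FPKM) than in TSMC (1.04). The platelet, Leydig and Sertoli sums were higher in PTM than in each smooth muscle group, the platelet sum through Pf4. The part of these lists in the filamin and vinculin differences was not tested.

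**Figure D3:**
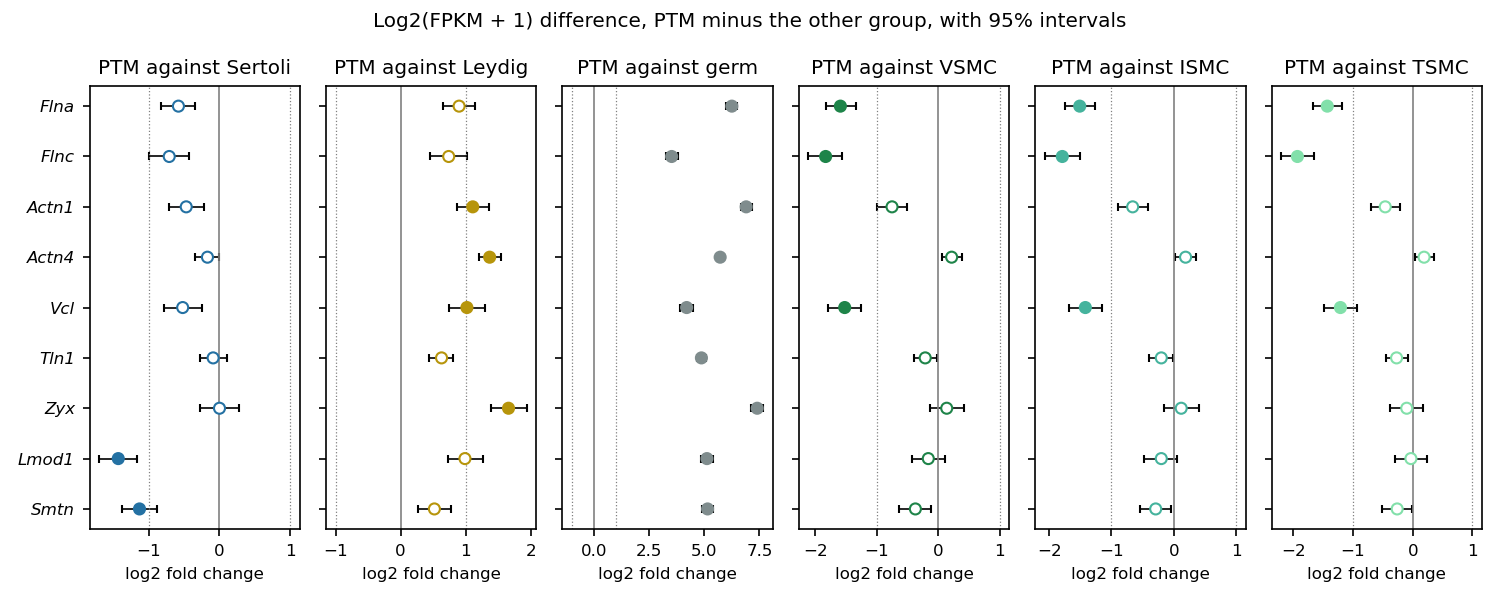
Log2 fold change, PTM minus the other group, on the log2(FPKM + 1) scale for each gene (points) with 95% intervals (bars, filled points called, dotted lines at -1 and 1, horizontal scale differing between panels). Flna, Flnc and Vcl are filled in each smooth muscle panel, where Actn1 against VSMC is also called under either rescaling, Lmod1 and Smtn against Sertoli cells, and all 9 genes against germ cells.

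Against Sertoli cells, which line the tubule inside the myoid layer, Lmod1 and Smtn were called lower in PTM. By limma, 0 of the 9 genes were called higher in PTM, also at an unadjusted p under 0.05. Over all genes tested, 2.51% were called lower and 3.56% higher. The median fold change of the 9 genes was -0.52, beside 0.06 over all genes.

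Leiomodin 1 nucleates actin filaments in smooth muscle. Lmod1 (Entrez 93689, chromosome 1, 135324813 to 135368065, plus strand) was at 38.8, 32.5 and 35.9 FPKM in PTM libraries, against 82.2, 119.6 and 95.6 FPKM in Sertoli libraries. The groups were far apart, with Sertoli replicate 2 the highest of all 21 libraries. On the log2 scale PTM differed by -1.43 (SE 0.13, adjusted p = 2.68e-07). Smoothelin, a marker of contractile smooth muscle that binds actin stress fibres, followed it. Smtn (Entrez 29856, chromosome 11, 3517522 to 3539292, minus strand) was at 45.4, 30.7 and 42.3 FPKM in PTM libraries, against 77.8, 92.2 and 90.0 FPKM in Sertoli libraries, a difference of -1.13 (SE 0.12, adjusted p = 1.73e-06).

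The Smtn call rested on the fold threshold. It stood at -0.96 without PTM replicate 2, and at -0.92 without the second PTM, Sertoli and germ libraries. With the replicate number as a block and the 6 libraries alone, Smtn kept its fold change of -1.13 but had an adjusted p of 0.0547, within a range of 3.92e-07 to 0.0547 over its alternatives, so that 1 of the 9 genes was called (Lmod1, adjusted p = 0.0403, range 1.52e-07 to 0.0403). Genes of the smooth muscle marker list moved with this pair, as their sums above show, and their part in it was not tested.

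Lmod1 and Smtn shared a profile over cell types, and their windows are shown for that reason, printed and marked as above. Each holds 1 MCAT match, 130 bases before the Lmod1 start and 222 bases before the Smtn start.
Lmod1 (chr1:135324563-135324822, plus strand): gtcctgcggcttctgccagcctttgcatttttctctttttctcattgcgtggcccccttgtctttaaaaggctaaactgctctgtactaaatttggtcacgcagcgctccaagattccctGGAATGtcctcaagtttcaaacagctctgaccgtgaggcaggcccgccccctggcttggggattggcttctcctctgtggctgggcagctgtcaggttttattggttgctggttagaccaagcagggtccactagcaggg
Smtn (chr11:3539283-3539542, minus strand): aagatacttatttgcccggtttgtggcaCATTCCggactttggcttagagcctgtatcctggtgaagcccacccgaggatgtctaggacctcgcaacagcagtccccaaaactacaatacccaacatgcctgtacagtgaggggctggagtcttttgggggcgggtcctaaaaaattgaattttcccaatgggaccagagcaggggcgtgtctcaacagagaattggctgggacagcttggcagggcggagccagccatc

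The remaining genes were closer between PTM and Sertoli cells. Flna was at 202, 289.9 and 241 FPKM in Sertoli libraries, above all PTM libraries, and differed by -0.58 (SE 0.11, adjusted p = 0.00104). Flnc, at 30.4, 33.6 and 35.0 FPKM in Sertoli libraries, differed by -0.71 (SE 0.13, adjusted p = 0.000602). Actn1, at 535, 535 and 557 FPKM, differed by -0.47 (SE 0.12, adjusted p = 0.00587). Vcl, at 144, 107 and 144 FPKM, differed by -0.52 (SE 0.13, adjusted p = 0.00567), with PTM replicate 2 above Sertoli replicate 2. These 4 differences were below the fold threshold, and with Lmod1 and Smtn they made 6 of 9 genes past the adjusted p alone, against 29.0% of all genes tested. With the replicate block over the 6 libraries alone, Lmod1 and Actn1 (adjusted p = 0.0497) still passed, but Flna (0.164), Flnc (0.119), Vcl (0.27) and Smtn (0.0547) did not. Without the second PTM, Sertoli and germ libraries Flna differed by -0.35 (adjusted p = 0.0121) and Vcl by -0.84 (adjusted p = 1.02e-06). Actn4 (interval -0.34 to 0), Tln1 (-0.28 to 0.1) and Zyx (-0.27 to 0.28) did not pass. Without those second libraries Actn4 passed by limma at -0.23 (adjusted p = 0.00614), and Tln1 stood at -0.21 (adjusted p = 0.101). Zyx stood at 0.08 in that setting. In all, 5 of the 9 genes had no overlap between PTM and Sertoli libraries, against 36.6% of all genes.

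Among the 9 genes, PTM replicate 2 was the lowest PTM library for 4 (Flna, Flnc, Lmod1, Smtn) and the highest for the other 5, with replicate 1 at the opposite end of each. In Sertoli cells replicate 1 was the lowest for 6 genes and replicate 2 for 3, while replicate 3 was the highest for 5 and replicate 2 for 4.

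Against Leydig cells, the steroid-making cells outside the tubule, 4 of the 9 were called higher in PTM, with 2 left by median log-ratio scaling and 3 by quantile normalization. By limma, 0 were lower, also at an unadjusted p under 0.05. Over all genes tested, 6.53% were called higher and 4.57% lower. The 4 genes were Zyx, Actn4, Actn1 and Vcl.

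Zyxin recruits Ena/VASP proteins, which promote actin filament growth. Zyx was at 253, 290.01 and 254 FPKM in PTM libraries, against 75.4, 74.8 and 101 FPKM in Leydig libraries. PTM differed by 1.66 on the log2 scale (SE 0.13, adjusted p = 2.73e-08), and the groups stood far apart. Actn4, at 164, 161 and 168 FPKM in Leydig libraries, differed by 1.37 (SE 0.08, adjusted p = 5.84e-10). Actn1, at 181, 171 and 190.1 FPKM there, differed by 1.11 (SE 0.12, adjusted p = 7.06e-07), and by 0.88 after median log-ratio scaling. Vcl, at 43.1, 43.3 and 46.1 FPKM, differed by 1.02 (SE 0.13, adjusted p = 4.89e-06). This Vcl value sat on the fold threshold and fell short of it at 0.84 without PTM replicate 2, 0.92 with quantile-normalized values and 0.79 with median-scaled values.

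Lmod1 lay at the other side of the same line. It was at 13.7, 18.2 and 21.1 FPKM in Leydig libraries, a difference of 0.99 (SE 0.13, adjusted p = 6.04e-06), and passed at 1.06 without PTM replicate 2, 1.02 without Leydig replicate 2 and 1.13 without Leydig replicate 3. Flna, at 83.9, 88.3 and 85.2 FPKM in Leydig libraries, differed by 0.90 (SE 0.11, adjusted p = 5.64e-06), and reached the threshold of 1 without PTM replicate 2. Flnc differed by 0.74 (adjusted p = 0.000164), Tln1 by 0.63 (adjusted p = 1.8e-05) and Smtn by 0.52 (adjusted p = 0.00144). All 9 genes had PTM libraries wholly above Leydig libraries, against 49.6% of all genes without overlap, and all 9 passed the adjusted p alone, against 51.2%. The median fold change of the 9 genes was 0.99, beside 0.10 over all genes. The fibroblast list summed to 3432 to 4230 FPKM in Leydig libraries and the smooth muscle list to 627 to 1263 FPKM, and the part of either in these differences was not tested.

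Against germ cells, all 9 genes were called higher in PTM. Over all genes tested, 42.9% were called higher and 27.6% lower, 92.7% had libraries without overlap, and 91.8% passed the adjusted p alone. Zyx (0.88, 0.45 and 0.45 FPKM in germ libraries) showed the largest step at 7.40 (SE 0.13, adjusted p = 1.82e-19), then Actn1 at 6.90 and Flna at 6.25. Flnc, at 0.75, 0.82 and 0.85 FPKM in germ libraries, showed the smallest at 3.52 on this scale. Without the added FPKM the ratio of means was smaller for Vcl (23.0) than for Flnc (25.1). It was then largest for Lmod1 (714), followed by Zyx (448) and Smtn (320). Lmod1 (0.08, 0.04 and 0.03 FPKM, inferred to be 2 to 6 fragments per library) and Smtn (6 to 13 fragments) were close to the limit of detection in germ libraries. Their fold changes of 5.12 and 5.15 therefore depend on the 1 FPKM added, and Smtn reached 7.48 at an added 0.1 FPKM. Actn4 and Vcl kept the highest levels in germ cells, at 7.17 ± 1.02 and 4.02 ± 0.178 FPKM (SD, n = 3 each), and the ratio of Actn1 to Actn4 there was 0.248 to 0.391.

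The order of the 7 groups differed between genes. Of the 54 pairs of neighbours in these orders, 28 passed an adjusted p under 0.05. For Flna, Flnc and Vcl the 3 smooth muscle groups came first, with no neighbour among them past the test, and were followed by Sertoli, PTM, Leydig and germ cells. Each of these steps passed, although Sertoli and PTM libraries overlapped for Vcl. For Actn1, no neighbours were separated in the series VSMC, ISMC, Sertoli and TSMC (adjusted p of 1, 0.179 and 0.97), which lay above PTM. Sertoli and VSMC, which were not neighbours, did differ (Sertoli minus VSMC -0.28, adjusted p = 0.0429). For Actn4, Sertoli and PTM came first and were not separated (adjusted p = 0.116), with PTM just past the test above ISMC (adjusted p = 0.0471). For Tln1 and Zyx no neighbours were separated among the 5 somatic groups other than Leydig. For Tln1, PTM did differ by limma from TSMC (-0.27, adjusted p = 0.0146) and VSMC (-0.21, adjusted p = 0.048), which were not its neighbours. For Lmod1 Sertoli stood alone in front of ISMC (1.23, adjusted p = 2.42e-07), followed by VSMC, TSMC and PTM with no separation, and for Smtn Sertoli stood in front of VSMC (0.75, adjusted p = 2.8e-05). Leydig lay below its upper neighbour and above germ cells for all 9 genes.

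As background to these orders, the share of all genes past the same threshold was 1.83% between VSMC and ISMC, 17.6% between VSMC and TSMC, and 14% between ISMC and TSMC. It was 62.8%, 61.1% and 60.1% between Sertoli cells and VSMC, ISMC and TSMC, 62.6% between Leydig cells and VSMC, and 90.1% between Leydig and germ cells. The 9 smooth muscle libraries varied little in every gene, from 1.08-fold between lowest and highest for Actn4 to 1.4-fold for Vcl. Pairs of smooth muscle libraries varied at 1.27 to 2.46 times sampling noise. Leydig pairs (25.44 to 34.35) and the PTM, Sertoli and germ pairs with replicate 2 lay far above that range. The germ pair without replicate 2 (1.77) lay within it, and those of PTM (3.23) and Sertoli (3.71) a little above. The spread that the model pools over groups can therefore understate that of Leydig cells and of groups with such a replicate.

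Over the 18 somatic libraries the 9 genes fell along a gradient of likeness. Pearson r of log2(FPKM + 1) ranged from 0.39 to 0.99 over the 36 pairs, with a median of 0.75. Flna and Flnc were the most alike (0.99), and each was close to Vcl (0.96 and 0.95). Actn4 and Zyx paired at 0.95, and Lmod1 and Smtn at 0.94, while Flnc and Lmod1 were the least alike (0.39). These values describe libraries that share groups and scaling, and carry no test.

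**Figure D4:**
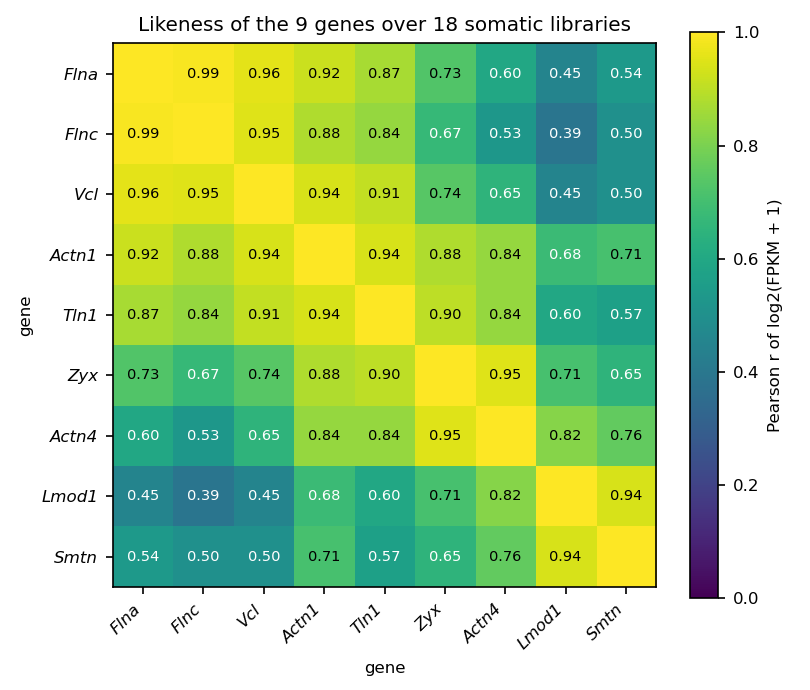
Pearson r of log2(FPKM + 1) between each pair of the 9 genes over the 18 somatic libraries, on a colour scale from 0 to 1 with the value in each cell. Flna, Flnc and Vcl form a block at 0.95 or more, and Lmod1 with Smtn reach 0.94 while lying between 0.39 and 0.54 against that block.

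Among the 9474 genes that reached 5 FPKM in 3 or more of these libraries, the 9 themselves left out, the genes most like Flna were Itgb3 (r = 0.992), Cspg4 (0.985) and Mgll (0.984). Itgb3, integrin beta 3, averaged 2.16 FPKM in PTM, 5.05 in Sertoli, 0.55 in Leydig and 10.0 in VSMC. Outside the 9, nearest to Flnc were Dysf (0.98), a membrane repair protein of muscle, Dab2ip (0.979) and Fam129b (0.979), and nearest to Vcl were Mid2 (0.99), Samd4 (0.99) and Col8a1 (0.982). Actn1 was followed most closely by Tnfaip1 (0.992), Pdlim1 (0.978), which binds alpha-actinin, and Mical2 (0.976), an enzyme that oxidises actin. Actn4 had Sema7a (0.965), Schip1 (0.962) and Fxr2 (0.961), Tln1 had Slc4a7 (0.971), Jup (0.97) and Tes (0.968), and Zyx had Lrrc8c (0.966), Slc35e4 (0.964) and Filip1l (0.961). Myl9, the regulatory light chain of smooth muscle myosin, and Zdhhc14 were among the 3 nearest genes of both Lmod1 (0.969 and 0.982) and Smtn (0.938 and 0.942), and Myl9 averaged 599 FPKM in PTM, 1348 in Sertoli, 423 in Leydig and 695 in VSMC libraries.

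A list of 58 other adhesion and crosslinker genes was set beside the 9, of which 54 passed the filter. Of these, 2 were higher and 11 lower in PTM against Sertoli cells (median -0.29, beside 0.06 over all genes), against Leydig cells 15 higher and 2 lower (0.35, beside 0.10), and against germ cells 42 higher and 4 lower (3.32, beside 0.62). Against VSMC 5 were higher and 9 lower (-0.37, beside 0.19), against ISMC 4 and 9 (-0.40, beside 0.14) and against TSMC 2 and 7 (-0.17, beside 0.13). The shares of all genes called higher and lower were 3.56% and 2.51% against Sertoli, 6.53% and 4.57% against Leydig, 42.9% and 27.6% against germ, 12.6% and 6.37% against VSMC, 10.7% and 7.0% against ISMC, and 11.3% and 7.2% against TSMC cells. In all 3 smooth muscle comparisons the partners called higher made up less than the share of all genes.

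Partners of alpha-actinin and filamin made up 7 of the 11 genes called lower than in Sertoli cells, out of 17 tested. Pdlim3, which docks on alpha-actinin, averaged 13.2 ± 1.41 FPKM in PTM, against 83.5 ± 28.1 FPKM for Sertoli cells (SD, n = 3 each), a difference of -2.53 (SE 0.28, adjusted p = 3.09e-06). Csrp2, a LIM protein of smooth muscle (-1.91) and Pdlim4 (-1.83) were also lower. Of 18 integrin-bound adaptors and kinases, 1 was called higher and 2 lower, beside the 3.56% and 2.51% of all genes.

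Against Leydig cells the LIM protein Tes, a partner of zyxin, was higher in PTM (25.5 ± 5.69 against 1.52 ± 0.64 FPKM, 3.41, adjusted p = 3.6e-10), as was Sorbs2 (2.13), whereas Pdlim3 was lower (-2.26). Against germ cells the largest steps were in Csrp1 (7.04), Pdlim1 (6.64), Fhl2 (6.29) and the integrin activator Fermt2 (6.10).

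Against smooth muscle Fhl1, Parvb and Pdlim3 were among the 4 largest partner changes in all 3 comparisons, which share the PTM libraries. The LIM protein Fhl1 was at 40.6 ± 1.84 FPKM in PTM and at 257 ± 6.88 in VSMC, 257 ± 4.65 in ISMC and 276 ± 9.12 in TSMC, with fold changes of -2.63, -2.64 and -2.73. Parvb, which links integrin-linked kinase to actin, was at 3.75 ± 0.976 FPKM in PTM and at 29.8 ± 0.829, 29.1 ± 1.12 and 27.8 ± 0.43 FPKM in the same groups (-2.72, -2.69 and -2.62). Higher in PTM were Pdlim3 (3.61, 3.51 and 2.75), whose smooth muscle means were 0.16 to 1.12 FPKM, and the vinculin-binding adaptor Sorbs3 (2.09, 2.02 and 2.49). Pdlim4 was higher against VSMC (2.55), where it was the smallest of the 4 largest partner changes.

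**Figure D5:**
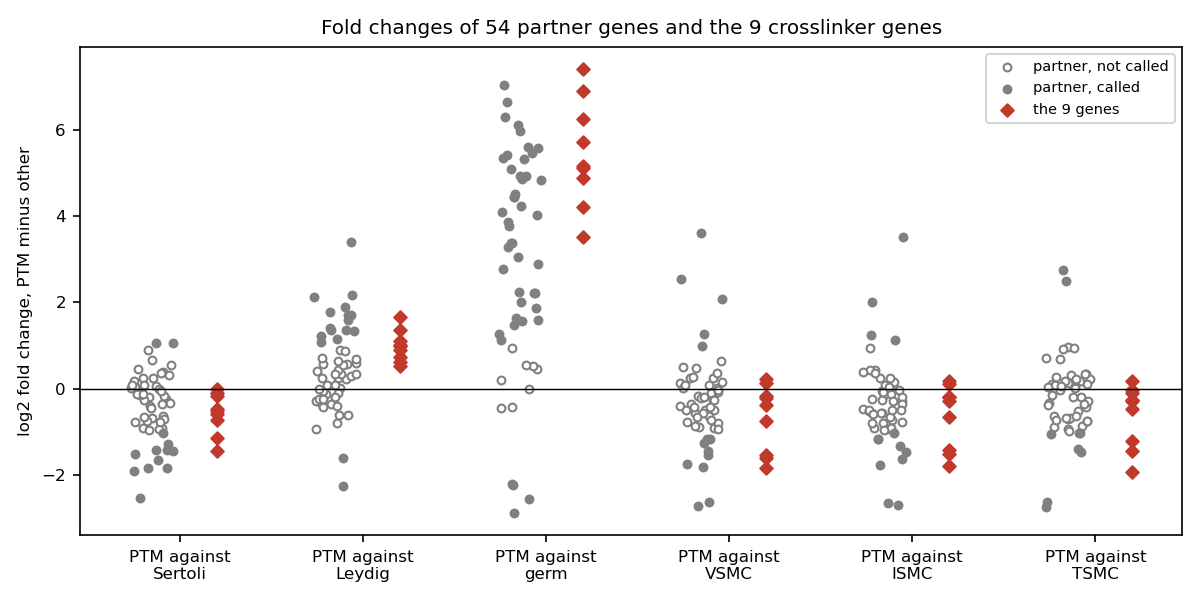
Log2 fold change, PTM minus the other group, of the 54 partner genes tested (circles, filled where called, spread sideways for legibility) and of the 9 crosslinker genes (diamonds) in each comparison. Partners lie on both sides of 0 in every comparison, with 42 called higher and 4 lower against germ cells and 2 higher and 11 lower against Sertoli cells.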

How the data were processed

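The authors deposited 1 table with FPKM per gene and library, printed to 2 decimals, per the file headers. RSEM 1.2.12, Bowtie2 2.2.5 and HISAT2 2.0.4 appear in the submitters' processing notes, which also name mm10, but not what each did. The authors' deposited log2 fold changes and q-values are given as the other group over PTM. Columns of group means (8), of a group ET1 without samples here (3) and of p-values (6) were not used. The gene coordinates are those of the table. Depth was inferred from the FPKM step of 1 fragment in transcripts of 800 to 1500 bases. Between 83.6 and 91.5% of these low values were whole within 0.2 fragments, against 40% by chance.

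log2(FPKM + 1) was modelled with limma 3.58.1 (R 4.3.3), with 7 group means and a mean-variance trend, leaving 14 residual degrees of freedom. P values are two-sided with Benjamini-Hochberg adjustment over all 14444 genes of a comparison. The added 1 shrinks the fold change of low genes. Nothing in the labels says that replicates are separate cultures, so p values reflect library-to-library spread that could be technical. On simulated data for PTM against Sertoli cells, the fit over 14444 genes recovered 49, 50, 49 and 50 of 50 genes planted at 1.5, 2, -1.5 and -2, and called 4 of 14244 unchanged genes. The simulated noise was independent between libraries, with a spread per gene pooled over all groups, and low genes were not planted. It held no outlying second libraries and no shared deviation of equal replicate numbers. These counts therefore cannot give the error rate in the real PTM and Sertoli libraries.

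The 9 genes, the marker lists and the partner list were chosen with earlier results of these data known. All 9 genes are named, with up to 4 called partners per comparison of at least 10 FPKM in the higher group, and the 3 genes nearest in profile to each. A few genes that the rule names are not reported here. PTM and Sertoli libraries of equal number deviated together from their means (r = 0.227, 0.25 and 0.103). No other of the 21 pairs of groups had all 3 values over 0.1, so the blocked fit stands beside that comparison. The labels give no source for this pairing.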

Additional observations from a re-analysis of the deposited data

How the results depend on the processing

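The count of genes called among the 9 was recomputed with another pseudocount (0.1 or 5 FPKM), no filter on low values, 2 rescalings, no mean-variance trend, a replicate block, the 2 groups alone, and each library left out. It changed by over 1.5 times in few of these. With no fold minimum it was 6 against Sertoli, 9 against Leydig, 7 against VSMC, 6 against ISMC and 6 against TSMC cells. Against Leydig cells it was 2, not 4, after median log-ratio scaling. Against Sertoli cells it was 1, not 2, in the replicate block fit of the 6 libraries, and 1 without the second PTM, Sertoli and germ libraries, a setting chosen after seeing the data. The replicate block changed no other count by as much. With single libraries left out, counts were 1 to 2 against Sertoli (1 without PTM replicate 2), 4 to 5 against Leydig, 9 against germ cells and 3 against each smooth muscle group, and 27 to 30 neighbours passed.

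Quantile normalization and median log-ratio scaling moved the median of all genes by -0.06 and -0.1 against Sertoli, -0.11 and -0.23 against Leydig, -0.35 and -0.44 against germ, -0.19 and -0.3 against VSMC, -0.14 and -0.26 against ISMC, and -0.14 and -0.23 against TSMC. Under these rescalings Actn4 turned to -0.11 and -0.07 against VSMC, -0.11 and -0.07 against ISMC, and -0.17 and -0.03 against TSMC. Zyx turned to -0.20 and -0.15 against VSMC and -0.19 and -0.14 against ISMC. Lmod1 against TSMC ran from -0.09 to 0.03 with single libraries left out, turning to 0.03 without PTM replicate 2 and without the 3 libraries above. None of these fold changes had been called. Of 864 recomputed fold changes, 12 turned sign, 9 lost and 9 gained a call; beyond the rescaling itself the cause was not tested.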

Other observations

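Germ cells carried related genes that PTM cells held at low levels. Talin 2 (Tln2) averaged 2.21 ± 0.421 FPKM in PTM and 22.3 ± 1.18 in germ libraries (SD, n = 3 each), a log2 fold change of -2.87, while talin 1 ran the other way. VSMC libraries held Tln2 at 10.3 FPKM. Alpha-actinin 2 (Actn2), known from striated muscle, averaged 0.33 FPKM in PTM and 5.19 in germ libraries (-2.22), and the smoothelin-like gene Smtnl1 averaged 0.1 and 4.09 FPKM (-2.20). These genes were named after their values were seen. The leiomodins Lmod2 and Lmod3, known from striated muscle, stayed at group means of 0.0867 FPKM or less.

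The authors' deposited table gives, as the other group over PTM, a log2 fold change of 1.47 for Lmod1 and 1.12 for Smtn in Sertoli cells, and of 1.58 for Flna, 1.86 for Flnc and 1.5 for Vcl in VSMC. These rest on the same libraries as the values above.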
